A study of Mus musculus with 24 samples.

Results

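The libraries compared here are labelled as CD8+ T cells before transplant (pre-tx). By the study's methods the cells were sorted from the spleens of Cat-Tg mice and of WT mice. The libraries were chosen by the sample labels alone, 3 labelled Cat-Tg CD8 pre-transplant and 3 labelled WT CD8 pre-transplant. These are 6 of the 24 RNA sequencing libraries of the series. Transcripts of the WT libraries go against a pure CD8+ sort, as described below. Both groups carry the C57BL/6 background and had not been transplanted when the cells were sorted. Cat-Tg mice carry a transgene for human β-catenin that lacks its N-terminal segment (ΔN87βCat), placed in the p1017 vector, whose proximal Lck promoter is active in T cells. The study's methods describe founders made in another strain and crossed to C57BL/6, heterozygous carriers, and mice matched for age and sex. The remaining 18 libraries are labelled as CD4+ cells sorted pre-tx from both genotypes and CD4+ or CD8+ cells sorted on day 7 post-tx. The sample descriptions put all Cat-Tg libraries under the prefix MM and all WT libraries under RH, so a difference between those 2 series of libraries cannot be told apart from genotype. By the study's methods each library of a group came from a mouse of its own, with 3 mice per genotype, so the p values rest on the spread between mice.

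CD8+ T cells recognise peptide on MHC class I through the T cell receptor (TCR), which signals through the CD3 chains, and through the CD8α and CD8β coreceptor chains. Resting naive CD8+ cells carry the homing receptor CCR7 and the transcription factors TCF-1 (Tcf7) and LEF-1 (Lef1), which are the DNA-binding partners of β-catenin. Effector, memory and innate memory cells raise CD44, CD122 (Il2rb), Eomes and granule proteases, among them the granzymes.

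Total estimated counts ran from 22263193 to 32547247 in Cat-Tg and from 18978963 to 28884454 in WT libraries, and 3 reads in a library make between 0.0922 and 0.158 CPM (counts scaled to library size). Such a floor covers counting error only. Levels below are CPM scaled by TMM, a normalization that assumes that most genes do not differ, unless they are given as reads per 100 CD3 reads.

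The label was checked against the markers of the cell type before any comparison. Cd8a, the α chain of the coreceptor, stood at 830.3, 479 and 763 CPM in Cat-Tg replicates 1, 2 and 3 and at 132, 78.7 and 133 CPM in WT replicates 1, 2 and 3 (log2 fold change 2.59, SE 0.37, adjusted p = 0.000674, edgeR). Cd8b1, the β chain, gave 2223, 1477 and 2245 CPM against 263, 236 and 218 CPM (log2 fold change 3.05, SE 0.32, adjusted p = 0.000194, edgeR). Both chains were higher in every Cat-Tg library than in any WT library. Cd4, the coreceptor of helper cells, showed the opposite order, with 0.949, 3.54 and 0.575 CPM in Cat-Tg and 74.9, 78.8 and 94.6 CPM in WT (log2 fold change -5.61, SE 0.86, adjusted p = 0.000944, edgeR). Per unit of transcript length, Cd8a made up 97 to 99.9% of the summed Cd8a and Cd4 TPM in the Cat-Tg libraries. The WT CD8 libraries held 57 to 72.2% and the WT CD4 pre-tx libraries 60 to 72.9%. The Cat-Tg CD4 pre-tx libraries held 1.23 to 3.29%.

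The 2 labels were then compared within each genotype over 19086 genes of all 24 libraries, counting a gene when its adjusted p did not exceed 0.05 and its log2 fold change reached 2 in either direction (edgeR). Between Cat-Tg CD8 and Cat-Tg CD4 libraries 41 genes were higher in CD8 and 210 lower (0.215% and 1.1% of those tested), and Cd8a differed by a log2 fold change of 6.88 (SE 0.60). Between WT CD8 and WT CD4 libraries 1 gene was higher and 2 were lower (0.00524% and 0.0105%), namely Wrn, Slc27a4 and AI854703, which are named after their values were seen. By the study's methods CD4+ and CD8+ cells were sorted from each mouse, a pairing that this fit left out. With a block for replicate number 3 genes were called between the WT labels and 249 between the Cat-Tg labels. At an unadjusted p under 0.05 (edgeR) stood 2651 genes between the WT labels and 1874 between the Cat-Tg labels. The few WT calls therefore do not show that the 2 WT labels were alike in all genes. Between the WT labels Cd8a differed by 0.01 (SE 0.46) and Cd4 by 0.07 (SE 0.53) on the log2 scale. The coreceptor transcripts therefore go against the WT label as a pure CD8+ sort, all 3 WT libraries share this, and no result below could be repeated without them.

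**Figure D1:**
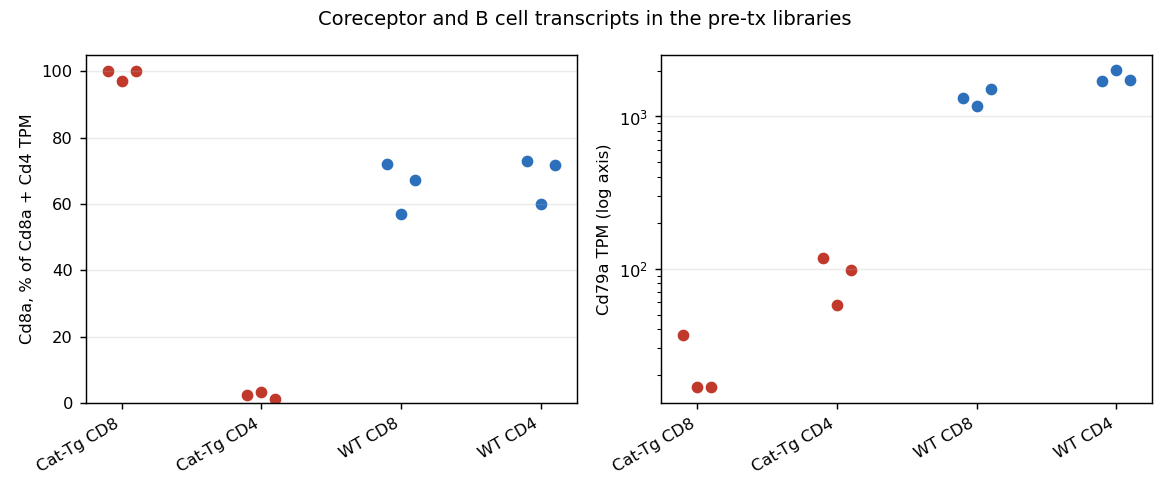
Left, Cd8a as a percentage of the summed TPM of Cd8a and Cd4, and right, Cd79a in TPM on a log axis, with 1 point for each pre-tx library. Cat-Tg libraries lie near 100 or near 0 on the left by their label, while WT libraries of both labels lie between 57 and 72.9% and above every Cat-Tg library in Cd79a.

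The transcript level of the targeted gene did not pass the test. Ctnnb1, which encodes β-catenin, stood at 92.5, 44.1 and 133 CPM in Cat-Tg and 119.6, 49.2 and 123 CPM in WT libraries, and the groups overlapped (log2 fold change -0.12, SE 0.67, adjusted p = 0.95, edgeR). The transgene is human, and how many of its reads the mouse index assigned to Ctnnb1 was not analysed here, so this value does not check the genotype.

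Transcripts of B cells and antigen-presenting cells were lower in the Cat-Tg libraries. Of 17 B cell genes, 16 fell and none rose at an adjusted p of at most 0.05, where 4.48% of all 15967 genes fell and 4.5% rose, and the summed B cell level was 283 to 531 CPM in Cat-Tg against 5460.2 to 6868 CPM in WT. Cd79a, a signaling chain of the B cell receptor, stood at 56.3, 23.5 and 27.5 CPM against 1184, 922 and 1223 CPM (log2 fold change -4.96, SE 0.65, adjusted p = 0.000474, edgeR). Cd79b, its partner chain, stood at 164, 58.3 and 143 CPM against 1094, 1157 and 1089 CPM (log2 fold change -3.19, SE 0.43, adjusted p = 0.000491, edgeR). Neither gene overlapped between the groups, and no B cell gene was at or under 3 reads in all 3 Cat-Tg libraries. In bulk libraries fewer cells of a type and less RNA per cell cannot be told apart.

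S1pr3, a sphingosine 1-phosphate receptor found on marginal zone B cells, was among the widest differences, at 0.136, 0.467 and 0.16 CPM in Cat-Tg and 50.7, 54.4 and 96.9 CPM in WT (log2 fold change -8.03, SE 0.87, adjusted p = 0.000208, edgeR). Its fellow marginal zone marker Cr2, a complement receptor, stood at 13.2, 4.63 and 2.68 CPM against 468, 115 and 332 CPM. Of 6 genes of that list 3 were called lower, and Cd1d1, Dtx1 and Myof were not called. MHC class II genes, used by cells that present antigen to CD4+ cells, fell in 7 of 10 members, where 4.48% of all genes fell. Their summed level was 881 to 1809 CPM against 21991 to 23984 CPM. Among them Cd74, the invariant chain, had 566, 255 and 249 CPM against 12019, 13286 and 11124 CPM. Macrophage and monocyte genes fell in 10 of 16 members (179 to 694 against 1190.0 to 3102 CPM), dendritic cell genes in 3 of 7 (5.68 to 16.1 against 109.7 to 139.5 CPM), and plasma cell genes in 3 of the 4 tested (102 to 187 against 389.7 to 1272 CPM). No member of these lists was at 0 reads in all 3 Cat-Tg libraries.

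Granulocyte, red cell, platelet and stromal lists held few calls with TMM, where 4.5% of all genes rose and 4.48% fell. At such shares lists this small can hold few calls or none. Granulocyte genes summed to 3045 and 2387 CPM in Cat-Tg replicates 1 and 2, to 303 CPM in Cat-Tg replicate 3, and to 515 to 689 CPM in WT, with 1 of 8 members, the antimicrobial peptide Camp, called higher. S100a8, a granulocyte calcium-binding protein, gave 945, 807 and 159.9 CPM against 213, 90.1 and 168 CPM. Globin and other red cell genes ran from 1558 to 11152 CPM in Cat-Tg and from 2961 to 10483 CPM in WT, with 0 of 7 called by edgeR. Platelet genes (3.3 to 18.2 against 19 to 28.4 CPM) and stromal genes (75.6 to 141 against 139 to 169 CPM) likewise held no called member of 3 tested each. In these 3 lists no member had an unadjusted p under 0.05, and DESeq2 and limma-voom also called none. Whether these transcripts touch the T cell results was not tested.

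**Figure D2:**
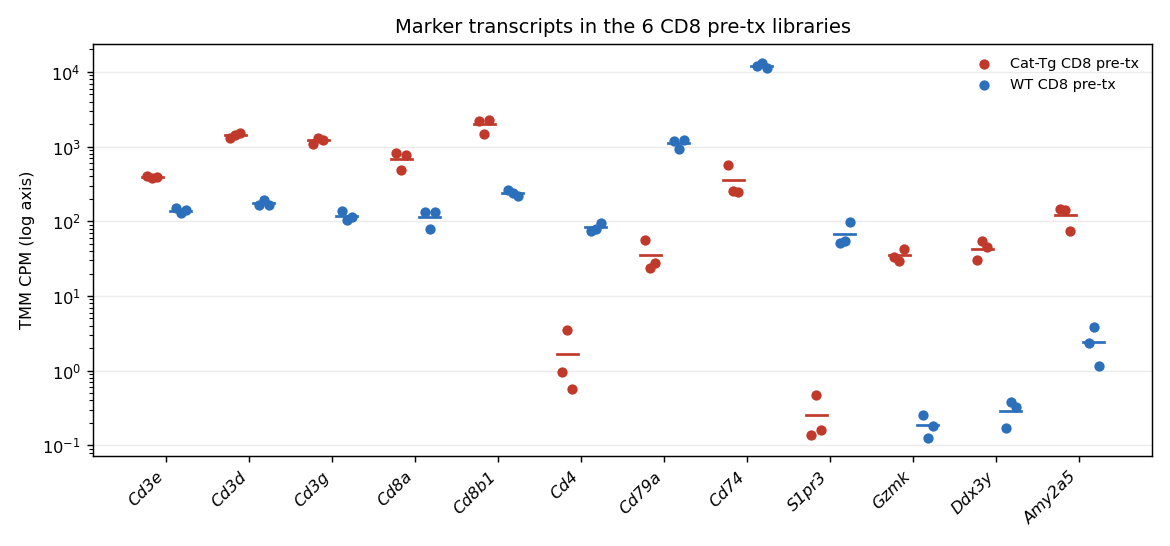
TMM CPM on a log axis for marker transcripts in the 6 CD8 pre-tx libraries, with 1 point per library and a bar at the group mean. T cell markers, Gzmk, Ddx3y and Amy2a5 are higher in all Cat-Tg libraries, and Cd4, Cd79a, Cd74 and S1pr3 in all WT libraries, with no overlap for any gene drawn.

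Against WT, 357 genes were higher and 606 lower in Cat-Tg CD8 pre-tx libraries by the same thresholds (edgeR, 2.24% and 3.8% of 15967 genes). Among protein-coding genes that passed, did not overlap between the groups and averaged at least 10 CPM in the higher one, the highest log2 fold changes belonged to Gzmk, to the Y chromosome genes Ddx3y, Srsy, Eif2s3y and Gm21773, and to the pancreatic enzymes Cela3b, Amy2a5 and Prss2. Within the same limits the lowest belonged to Ltk, Hspa1b, S1pr3, Hspa1a, Vav2, Ace, Ebi3 and Siglecg. Siglecg, an inhibitory lectin of B cells, stood at 5.29, 4.94 and 0.543 CPM against 419.7, 286 and 424 CPM, and Vav2, a guanine nucleotide exchange factor, at 0.181, 0.389 and 0.0958 CPM against 39.2, 27.2 and 31.7 CPM. Ltk, a receptor tyrosine kinase, had at most 3 reads in each Cat-Tg library and 9.57, 6.97 and 17 CPM in WT, so it was at least 82.4-fold lower against a floor of 3 reads per library. The inducible heat shock gene Hspa1a was likewise at least 106-fold lower, and its adjusted p of 0.0143 (edgeR) rose to 0.0513 without Cat-Tg replicate 2 (log2 fold change -7.77) and to 0.0617 without Cat-Tg replicate 3 (-6.89). The calls of Cela3b (log2 fold change 5.70 without WT replicate 2) and of Gm21773 (5.43 and 5.68 without WT replicate 1 or 3) were lost in the same way. The counts moved by more than 1.5 times without single libraries, to 225 higher without Cat-Tg replicate 1, to 184 higher and 348 lower without Cat-Tg replicate 3, and to 359 lower without WT replicate 1. With a correction for gene length the split was 160 higher and 541 lower.

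To ask which differences exceed the change in T cell transcripts, each library was next scaled to its CD3 transcripts, by the geometric mean of its Cd3e, Cd3d and Cd3g reads. This mean was 841, 891 and 906 CPM in Cat-Tg and 151, 137 and 139 CPM in WT replicates 1, 2 and 3, a difference of 2.63 on the log2 scale. The groups stood far apart, and within each group the 3 libraries were close. The 3 chains did not move alike. Cd3e, the ε chain, gave 410.5, 385 and 395 CPM against 150.0, 128 and 141 CPM (log2 fold change 1.51, SE 0.46, adjusted p = 0.0513, edgeR). Cd3d, the δ chain, gave 1320.5, 1426 and 1514 CPM against 167, 193 and 168 CPM (log2 fold change 3.01, SE 0.30, adjusted p = 0.000167, edgeR), and Cd3g, the γ chain, 1097, 1288 and 1242 CPM against 138, 103 and 114 CPM (log2 fold change 3.35, SE 0.49, adjusted p = 0.000716, edgeR). A gene is therefore placed against CD3 only to within the distance between those chains, from 1.51 to 3.35. Since CD4+ cells carry CD3 too, the WT ruler counts both lineages.

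Per CD3 read nearly the whole transcriptome of the Cat-Tg libraries lay below that of the WT libraries, with a median log2 fold change over all tested genes of -2.70, against -0.07 with TMM. With 1 as the smallest log2 fold change counted and the same limit on the adjusted p, 11805 genes were lower (73.9% of 15967) and 38 higher (0.238%, edgeR). A lower value in Cat-Tg, per CD3 read or with TMM, cannot be told apart from reads that other cells added to the WT libraries. This holds for each lower value given below. Of 185 tested members of 12 T cell lists (189 genes), 34 lay within a log2 fold change of 1 of CD3, 148 lay lower and 3 higher, namely Gzmk, Gzmc and Klrd1. Gzmk was the only 1 of the 3 with an adjusted p of at most 0.05, and 142 members were called lower, where 74.2% of all genes were. With TMM the same lists held 33 higher and 17 lower members, with a median of 0.22. Without WT replicate 1, 2 members were higher per CD3 read, Klrd1 beside Gzmk. Over all genes the reads per 100 CD3 reads of the groups did not overlap for 0.576% with Cat-Tg higher and 77.3% with Cat-Tg lower, and CPM did not overlap for 17% and 16%. With Cd8a and Cd8b1 as the ruler 0.175% of genes were higher and 73.4% lower (edgeR).

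**Figure D3:**
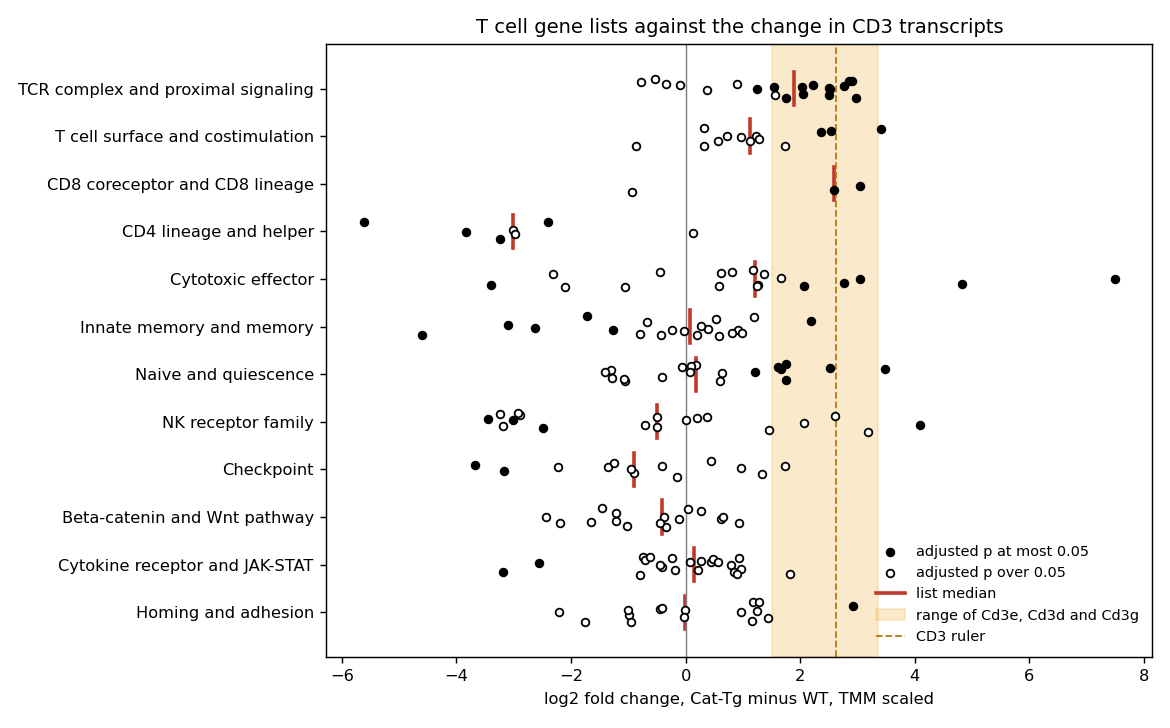
TMM-scaled log2 fold change, Cat-Tg minus WT, of every tested member of the 12 T cell lists, 1 point per gene, filled where the adjusted p is at most 0.05, with a bar at each list's median. The shaded band spans Cd3e to Cd3g (1.51 to 3.35) and the dashed line is their joint change (2.63), which 3 list members exceed by 1 or more.

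Genes of the TCR complex and its proximal signaling rose in part with TMM and none rose per CD3 read. With TMM 13 of 20 rose and none fell (edgeR), with a median log2 fold change of 1.89, where 4.5% of all genes rose. Per CD3 read 10 fell, where 74.2% of all genes did, so the share that fell was below that of all genes. Their median per CD3 read was -0.73, where that of all genes was -2.70. Trbc2, a constant gene of the TCR β chain, had 361, 229.7 and 369 reads per 100 CD3 reads in Cat-Tg and 245, 294 and 217 in WT (log2 fold change 0.34, SE 0.38, adjusted p = 0.403, edgeR), and the groups overlapped. Lck, the kinase that starts TCR signaling and whose proximal promoter drives the transgene vector, had 342, 194 and 290.0 against 338, 418 and 332 (log2 fold change -0.40, SE 0.42, adjusted p = 0.377, edgeR). The adaptors Sit1 and Skap1 and the CD3ζ chain Cd247 lay at 0.21, -0.13 and -0.11 per CD3 read, none of them called. The linker Lat lay at -1.08 and Plcg1, phospholipase Cγ1, at -2.70 per CD3 read, where the median of all genes was -2.70. Trac, the TCR α constant gene, lay at -0.86 (adjusted p = 0.0373, edgeR), and this call was lost in the fits without Cat-Tg replicate 2 or 3 or WT replicate 1 or 2 (log2 fold change -0.73, -0.85, -0.76 and -0.88). Levels between these genes are not compared, since reads scale with transcript length.

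The coreceptor chains did not pass the test once scaled to CD3. Cd8a had 98.7, 53.8 and 84.3 reads per 100 CD3 reads in Cat-Tg against 87.5, 57.7 and 95.3 in WT (log2 fold change -0.02, SE 0.35, adjusted p = 0.954, edgeR). Cd8b1 had 264, 166 and 248 against 174, 173 and 157 (log2 fold change 0.43, SE 0.30, adjusted p = 0.198, edgeR). Both pairs of groups overlapped. Cd8b1 was called higher in 2 of 20 alternatives of that fit, with Cd3e alone or with 12 T cell genes as the ruler. Runx3, the transcription factor that represses Cd4 in the CD8 lineage, stood at 35.4, 31.5 and 34.9 CPM in Cat-Tg and 67, 48.9 and 78 CPM in WT (log2 fold change -0.93, SE 0.46, adjusted p = 0.241, edgeR) and lay at -3.55 per CD3 read. The helper lineage genes lay at the other end. All 7 tested of that list were lower per CD3 read and 4 with TMM, where 74.2% and 4.48% of all genes were. Among them were Cd4 and Zbtb7b (ThPOK, the factor that commits cells to the CD4 lineage). Zbtb7b stood at 1.85, 1.83 and 0.16 CPM against 19.6, 10.7 and 24.1 CPM. Foxp3, the regulatory T cell factor, gave 0.813, 1.01 and 8.01 CPM against 22.6, 34.4 and 20.7 CPM, with Cat-Tg replicate 3 above its fellows.

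Gzmk, which encodes granzyme K, a tryptase-like granule protease found in memory-type CD8+ cells, had the highest fold change of the T list members on both scales. It stood at 33.4, 29.2 and 42.1 CPM in the Cat-Tg and at 0.255, 0.127 and 0.184 CPM in the WT libraries (log2 fold change 7.49, SE 0.60, adjusted p = 2.6e-05, edgeR), the latter from 9, 4 and 8 reads. Per 100 CD3 reads it had 3.97, 3.28 and 4.65 in Cat-Tg and 0.169, 0.0929 and 0.133 in WT (log2 fold change 4.90, SE 0.57, adjusted p = 1.65e-05, edgeR). Every Cat-Tg library lay above every WT library on both scales. With Cd8a and Cd8b1 as the ruler the log2 fold change was 4.74 (adjusted p = 2.59e-05, edgeR), and over 20 alternatives of the CD3-scaled fit it ran from 4.20 to 6.02 with adjusted p of at most 0.00302. Elsewhere in the series Gzmk ran from 21.7 to 27.3 CPM in Cat-Tg CD4 pre-tx and from 0.819 to 2.34 CPM in WT CD4 pre-tx libraries, scaled over all 24 libraries.

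The bases before the transcription start of the gene with that fold change, of Klk8, described next, and of the marker S1pr3, which fell, are shown for orientation. Each is the 250 bases before the RefSeq start in build GRCm38.p6, read 5′ to 3′ on the gene's strand, at chr13:113180966-113181215 (minus strand) for Gzmk, chr7:43797327-43797576 (plus strand) for Klk8 and chr13:51408368-51408617 (plus strand) for S1pr3. Capitals mark matches, on either strand, to a TCF/LEF motif (CTTTGAA or CTTTGAT or CTTTGTA or CTTTGTT), a RUNX motif (TGTGGT), a T-box motif (TCACACC) or an EBF motif (CCCNNGGG), of which none was found in S1pr3.
Gzmk: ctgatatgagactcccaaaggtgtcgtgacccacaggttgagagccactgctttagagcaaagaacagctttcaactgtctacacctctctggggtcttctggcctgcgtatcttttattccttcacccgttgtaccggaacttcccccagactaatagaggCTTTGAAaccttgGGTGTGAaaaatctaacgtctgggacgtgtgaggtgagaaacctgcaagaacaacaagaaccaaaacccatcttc
Klk8: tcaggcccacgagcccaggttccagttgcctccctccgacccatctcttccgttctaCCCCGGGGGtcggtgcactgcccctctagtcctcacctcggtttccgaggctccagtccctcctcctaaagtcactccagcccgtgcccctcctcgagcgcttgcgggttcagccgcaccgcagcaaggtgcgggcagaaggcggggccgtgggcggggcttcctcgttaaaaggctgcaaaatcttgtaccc
S1pr3: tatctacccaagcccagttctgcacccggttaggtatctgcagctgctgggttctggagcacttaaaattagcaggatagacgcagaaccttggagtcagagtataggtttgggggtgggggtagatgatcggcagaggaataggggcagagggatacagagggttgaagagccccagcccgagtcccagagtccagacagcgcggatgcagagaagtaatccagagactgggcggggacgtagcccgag

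The Gzmk window holds a TCF/LEF match, as do 14.8% of 32851 mouse promoter windows of this length, and a T-box match, as do 3.33%. The Klk8 window holds 2 overlapping EBF matches, as 11.8% of windows hold at least 1, and RUNX matches, absent from these 3, occur in 14%. Among windows not printed, that of the ruler gene Cd3d holds 2 TCF/LEF matches. A match describes letters and no binding was measured.

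The 38 genes higher per CD3 read fell into few classes: 12 lie on the Y chromosome, 7 encode pancreatic enzymes, 3 are TCR variable segments, 11 are other protein-coding genes and 5 are other pseudogenes. Of all 38, 15 averaged at least 10 CPM in Cat-Tg, and 28 were also called with Cd8a and Cd8b1 as the ruler. Klk8, a secreted serine protease of the kallikrein family, named after its values were seen, was the most abundant of the other protein-coding genes, at 275, 212 and 347 CPM in Cat-Tg and 18.6, 15.6 and 21.4 CPM in WT. Per 100 CD3 reads it had 32.7, 23.8 and 38.3 against 12.3, 11.4 and 15.4 (log2 fold change 1.28, SE 0.36, adjusted p = 0.00573, edgeR), and with Cd3g alone as the ruler this fell to 0.55 (adjusted p = 0.401, edgeR). In Cat-Tg and WT CD8 post-tx libraries Klk8 ran from 116 to 194 and from 227 to 389 CPM. Ninj2, an adhesion protein, was at 0 reads in all 3 WT libraries and at 6.91, 2.14 and 8.27 CPM in Cat-Tg, at least 9.45-fold higher per CD3 read against a floor of 3 reads per library. The count of 38 became 21, 19 and 24 without Cat-Tg replicates 1, 2 and 3 and 60 without WT replicate 2.

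With the 3 CD3 genes as the ruler no other effector gene rose. Gzmm did with Cd3e alone or with 12 T cell genes as the ruler. Of 18 cytotoxic effector genes, 5 rose with TMM and 1 fell, while per CD3 read 1 rose, 10 fell and 7 were not called (edgeR), where 74.2% of all genes fell and 0.238% rose. The share that fell was thus below that of all genes. With TMM 4.5% of all genes rose and 4.48% fell. Gzmm, granzyme M, gave 39.3, 27.1 and 45.3 CPM against 5.65, 4.95 and 2.95 CPM and lay at 0.43 per CD3 read, and Cst7, an inhibitor of granule cathepsins, at 0.16. Nkg7, a granule membrane protein, had 155, 105 and 129 reads per 100 CD3 reads in Cat-Tg against 199, 158 and 212 in WT (log2 fold change -0.55, SE 0.41, adjusted p = 0.218, edgeR). Of those 3, which rose with TMM, none was called per CD3 read. Gzma, granzyme A, had 3.26, 2.05 and 1.39 reads per 100 CD3 reads in Cat-Tg and 74.7, 23.6 and 105 in WT (log2 fold change -4.92, SE 0.83, adjusted p = 0.000191, edgeR), while with TMM it did not pass (log2 fold change -2.32, SE 0.72, adjusted p = 0.0575). Prf1, perforin, had 13.5, 9.58 and 8.84 against 42.2, 30.9 and 37.7 (log2 fold change -1.80, SE 0.47, adjusted p = 0.00376, edgeR), and Ccl5, a chemokine stored in memory-type CD8+ cells, 53, 37.9 and 56.3 against 133, 122 and 146 (log2 fold change -1.45, SE 0.39, adjusted p = 0.00426, edgeR). Gzmb, granzyme B, had 1.81, 1.58 and 1.05 against 3.79, 2.14 and 12.4 (log2 fold change -2.05, SE 0.59, adjusted p = 0.00668, edgeR). Its call was lost without WT replicate 3 (log2 fold change -1.002, adjusted p = 0.0878, edgeR). NK cells also hold these granule genes. The 18 genes of the NK receptor family summed to 366 to 541 CPM in Cat-Tg and 446 to 629 CPM in WT, and with TMM 1 rose and 3 fell. Klrk1 and Klrc1, receptor chains that CD8+ cells share with NK cells, lay at 0.01 and 1.45 with TMM. Of the markers that define NK cells, Ncr1 stood at 0.0452, 2.49 and 4.98 CPM against 25.2, 7.92 and 38.4 CPM and Klrb1c, NK1.1, at 10.1, 1.63 and 7.02 CPM against 45.2, 12.4 and 47.7 CPM. With TMM Klrb1c was called lower and Ncr1 was not, and the call of Klrb1c was lost in every fit without 1 library but that without WT replicate 2 (log2 fold change -3.07 to -2.04). Their part in the lower effector values was not tested.

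Genes of a list that joins innate memory with other memory and effector genes were not raised as a group. With TMM 1 of 20 rose and 5 fell, where 4.5% and 4.48% of all genes did, with a median log2 fold change of 0.08 beside -0.07 for all genes, and per CD3 read 18 of 20 fell and none rose (edgeR), where 74.2% of all genes fell and 0.238% rose. The riser was Ly6c2, a surface antigen of memory-type CD8+ cells, at 806, 565 and 727 CPM against 180.3, 81.3 and 199 CPM (log2 fold change 2.19, SE 0.39, adjusted p = 0.0027, edgeR) and at -0.42 per CD3 read. Cd44, the activation and memory receptor for hyaluronan, had 2.63, 2.03 and 1.79 reads per 100 CD3 reads in Cat-Tg against 52.6, 23.3 and 53 in WT (log2 fold change -4.32, SE 0.50, adjusted p = 1.66e-05, edgeR). Il2rb, the CD122 chain through which IL-2 and IL-15 signal, stood at 284, 314 and 265 CPM against 161, 151 and 146 CPM, a TMM difference that did not pass (log2 fold change 0.91, SE 0.49, adjusted p = 0.281, edgeR), and per 100 CD3 reads it had 33.8, 35.2 and 29.2 against 107, 111 and 105 (log2 fold change -1.71, SE 0.49, adjusted p = 0.00653, edgeR). For Cd44 and Il2rb the groups did not overlap on either scale. Cd44 also fell with TMM (-1.71, adjusted p = 0.0312, edgeR), as did Cx3cr1, Zeb2, Prdm1 and S100a4, and its call was lost in every fit without 1 library but that without WT replicate 2 (log2 fold change -1.88 to -1.50). Eomes, the T-box factor of innate memory cells, overlapped with TMM at 19.4, 16.3 and 14.5 CPM against 23.6, 8.84 and 18.9 CPM and lay at -2.64 per CD3 read, and Tbx21, T-bet, at -3.42. B cells, myeloid cells and NK cells, which the WT libraries also hold, are known to express several genes of this list. Neither its TMM values nor its fall per CD3 read was separated from theirs, so the list gives no verdict on innate memory cells.

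Naive cell genes rose in part with TMM and none rose per CD3 read. With TMM 7 of 19 rose and none fell, where 4.5% of all genes rose. Per CD3 read 15 fell (edgeR), where 74.2% of all genes did, a share close to that background. Il7r, the IL-7 receptor chain, had 43.6, 44.1 and 32.4 reads per 100 CD3 reads against 56.1, 27 and 43.8 (log2 fold change -0.08, SE 0.43, adjusted p = 0.864, edgeR), and the groups overlapped, while Dapl1 lay at 0.84 per CD3 read and was not called. Dapl1 was called higher with 12 T cell genes as the ruler, with limma-voom or in the 6 libraries alone. Lef1 had 42, 32.1 and 36 reads per 100 CD3 reads in Cat-Tg against 104, 97.5 and 88.9 in WT (log2 fold change -1.40, SE 0.33, adjusted p = 0.00181, edgeR), with every Cat-Tg library below every WT library. Tcf7 had 46.9, 27.6 and 35.4 against 95.9, 50.3 and 72.5 (log2 fold change -0.99, SE 0.41, adjusted p = 0.0385, edgeR). The call of Tcf7 was lost in the fits without Cat-Tg replicate 2 or 3 or WT replicate 1 or 3, where the log2 fold changes ran from -0.996 to -0.75, and with Cd3e alone as the ruler it turned positive at 0.12. On the TMM scale Tcf7 and Lef1 were higher in Cat-Tg, by 1.61 and 1.22, and Ets1 and Klf2, a lymphoid factor and a regulator of lymphocyte exit, stood at 0.08 and 0.18 and were not called. With TMM the call of Lef1 was lost without any 1 of the 6 libraries (log2 fold change 1.08 to 1.31), and that of Tcf7 without Cat-Tg replicate 1 or 3 or WT replicate 2 or 3 (1.38 to 1.57).

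**Figure D4:**
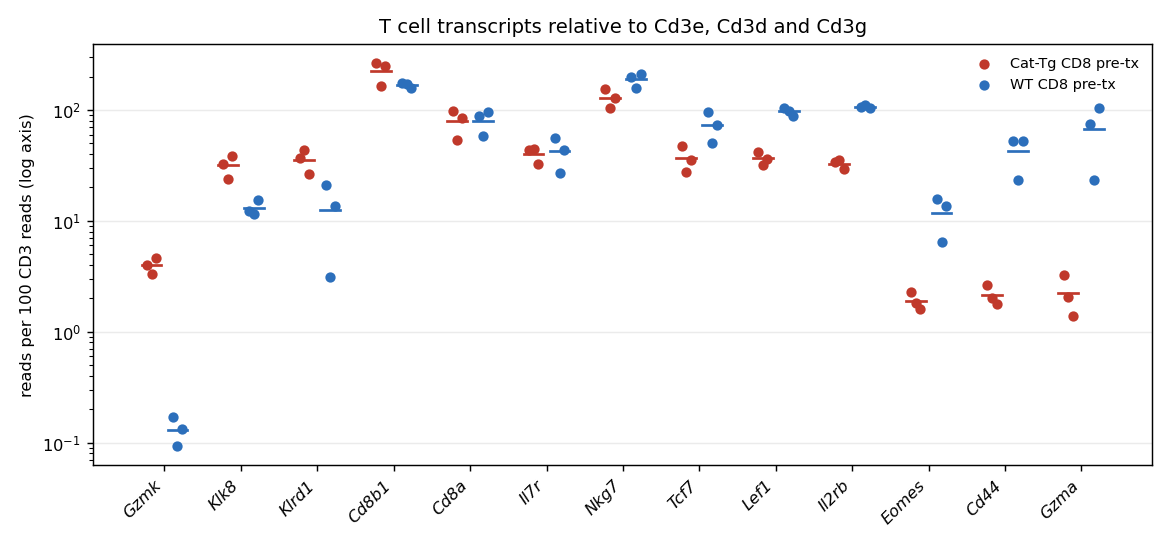
Reads per 100 CD3 reads on a log axis for T cell transcripts in the 6 CD8 pre-tx libraries, with 1 point per library and a bar at the group mean, ordered by role and difference. Gzmk lies higher in Cat-Tg with a log2 fold change of 4.90, Cd8a, Cd8b1 and Il7r overlap between the groups, and Lef1, Il2rb, Eomes, Cd44 and Gzma lie lower in every Cat-Tg library.

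Genes of the β-catenin and Wnt pathway held no call by edgeR with TMM, and a few by other tools. None of 16 tested was called by edgeR, where 4.5% of all genes rose and 4.48% fell. Of the 16, 3 had an unadjusted p under 0.05, DESeq2 called 3 lower (Apc, Gsk3b and Cd9) and limma-voom 2 (Apc and Gsk3b). The median log2 fold change was -0.42. Axin2, a feedback inhibitor induced by β-catenin with TCF factors, stood at 1.36, 8.32 and 0.447 CPM against 0.255, 3.99 and 1.04 CPM, and the groups overlapped (log2 fold change 0.94, SE 1.18, adjusted p = 0.708, edgeR). Myc, another target, stood at 72.4, 51.8 and 73.7 CPM against 110.3, 79 and 82 CPM (log2 fold change -0.46, SE 0.51, adjusted p = 0.666, edgeR). Apc and Gsk3b, members of the complex that degrades β-catenin, had TMM log2 fold changes of -2.19 and -1.65 with adjusted p of 0.0596 and 0.0628 (edgeR). Per CD3 read 14 of 16 were lower (edgeR), where 74.2% of all genes were.

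Receptors for costimulation, cytokines and homing were mixed. Over all genes 4.5% rose and 4.48% fell with TMM, and 74.2% fell per CD3 read. Of 13 surface and costimulation genes, 3 rose with TMM: Cd2, an adhesion receptor, at 119, 89.8 and 119.9 reads per 100 CD3 reads in Cat-Tg and 135, 117 and 142 in WT, Cd96 at -0.07 and Cd226 (DNAM-1) at 0.80 on the log2 scale per CD3 read. None of the 3 was called per CD3 read, while Cd27 (-1.52), Cd28 (-2.27) and Icos (-1.65), costimulatory receptors, lay lower. Cytokine receptor and JAK-STAT genes had a TMM median of 0.15, with none of 22 higher and 2 lower, Il10ra at -2.57 and Il12rb2 at -3.20. Of 16 homing genes 1 rose, Itgae, the CD103 integrin chain (2.92 with TMM and 0.28 per CD3 read, adjusted p = 0.0241 and 0.727, edgeR). That count is near the share of all genes that rose. Selplg, the P-selectin ligand, gave 1455, 1279 and 1419.6 CPM against 577, 595 and 548 CPM (log2 fold change 1.27, SE 0.50, adjusted p = 0.134, edgeR).

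In the NK receptor family Klrd1, the CD94 chain that pairs with NKG2 receptors, stood apart. It had 308, 390.4 and 238 CPM in Cat-Tg and 31.8, 4.25 and 18.9 CPM in WT (log2 fold change 4.09, SE 0.73, adjusted p = 0.00279, edgeR), and per 100 CD3 reads 36.6, 43.8 and 26.3 against 21, 3.11 and 13.6, without overlap and without passing the test (log2 fold change 1.50, SE 0.67, adjusted p = 0.0525, edgeR). It passed in 7 of 20 alternatives of that fit, with adjusted p from 0.0257 to 0.23. The family otherwise held 3 TMM falls of 18, among them the adaptors Tyrobp at 56.3, 20.5 and 18.5 CPM against 279, 287 and 201 CPM and Fcer1g at 8.54, 18.7 and 4.37 CPM against 143, 97.5 and 104 CPM, which NK and myeloid cells share. Klra genes are close copies of each other, and reads split among them are uncertain. Checkpoint genes had a TMM median of -0.90, with none of 13 higher and 2 lower, where 4.5% and 4.48% of all genes were. The 2 lower were the ectonucleotidase Entpd1 (CD39) and the receptor Havcr2 (TIM-3). Neither fall was separated from reads that other cells added to the WT libraries. These calls were lost without Cat-Tg replicate 2 or WT replicate 1 for Entpd1 (log2 fold change -3.63 to -3.19) and without Cat-Tg replicate 3 for Havcr2 (-2.82). Pdcd1, PD-1, gave 8.18, 7.66 and 4.79 CPM against 12.6, 13.1 and 12.7 CPM (log2 fold change -0.90, SE 0.36, adjusted p = 0.137, edgeR) and Ctla4 14.6, 8.09 and 12.7 CPM against 8.54, 0.539 and 4.96 CPM (log2 fold change 1.33, SE 0.76, adjusted p = 0.321, edgeR).

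Transcripts of further proteins that the study measured gave few calls with TMM. The kinase gene Mapk3 stood at a log2 fold change of -0.53 with an adjusted p of 0.615 (edgeR). Irf4, a factor of activated lymphocytes and plasma cells, stood at 0.271, 1.4 and 3.77 CPM against 52.1, 39.2 and 59.2 CPM (log2 fold change -4.78, SE 1.08, adjusted p = 0.0118, edgeR), and without Cat-Tg replicate 2 the log2 fold change was -4.62 (adjusted p = 0.0553, edgeR). The cytokines Ifng and Tnf were low, at 1.22, 0.428 and 0.128 CPM against 4.31, 0.666 and 2.58 CPM and 4.97, 5.64 and 0.0958 CPM against 13.6, 5.8 and 2.84 CPM, and their groups overlapped.

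Stress and immediate early genes, which cells switch on within minutes of handling or stimulation, fell in 7 of 19 tested and rose in none with TMM (edgeR). Over all genes 4.48% fell. The falls in this list were not separated from reads that other cells added to the WT libraries. Jun stood at 3.75, 5.6 and 0.16 CPM against 85.7, 105 and 86.8 CPM (log2 fold change -4.87, SE 1.03, adjusted p = 0.00802, edgeR) and Nr4a1, which TCR and B cell receptor signals induce, at 4.65, 3.81 and 2.81 CPM against 130.4, 70.1 and 31 CPM (log2 fold change -4.36, SE 0.62, adjusted p = 0.000647, edgeR). Fos stood at 0.181, 2.37 and 0.16 CPM against 51.2, 36.6 and 35.6 CPM, and its adjusted p of 0.0115 (edgeR) became 0.0532 without Cat-Tg replicate 3 (log2 fold change -5.02). Among members that did not pass, Ier2, another immediate early gene, gave 116, 144 and 142 CPM against 149, 166 and 148 CPM (log2 fold change -0.20, SE 0.50, adjusted p = 0.869, edgeR) and the constitutive chaperone Hspa8 2352, 1388 and 2187 CPM against 1311, 981 and 1339 CPM (log2 fold change 0.71, SE 0.37, adjusted p = 0.269, edgeR).

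Of 4 Y chromosome genes, Ddx3y and Eif2s3y were higher in Cat-Tg (edgeR), although the methods describe sex-matched mice. Ddx3y stood at 30.2, 53.9 and 44.8 CPM in Cat-Tg and 0.17, 0.38 and 0.323 CPM in WT, and Eif2s3y at 32.6, 59.2 and 44.5 CPM and 0.284, 0.697 and 0.715 CPM. Reads assigned to Kdm5d and Uty were found in both groups, Kdm5d at 33.4, 60.1 and 37.1 CPM against 12.7, 20 and 18.3 CPM and Uty at 25, 26.4 and 10.8 CPM against 6.39, 19.1 and 5.44 CPM. Whether those WT reads came from the Y chromosome was not tested. In the Cat-Tg CD8 post-tx libraries Ddx3y ran from 0 to 0.0638 CPM. Xist was not analysed here, and what goes with donor sex cannot be told apart from genotype in these 6 libraries.

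Pancreatic enzyme transcripts, a list written after their values were seen, were higher in Cat-Tg in 12 of 18 members with TMM and in 4 per CD3 read (edgeR), where 4.5% and 0.238% of all genes were, and summed to 562 to 632 CPM against 21.5 to 44.1 CPM. Amy2a5, an amylase, had 144, 141 and 75.1 CPM against 2.33, 3.87 and 1.15 CPM. Amy2a2, Amy2a3 and Amy2a4 had identical values and are near-identical copies, so their separate counts are uncertain, as may be that of Amy2a5.

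The genotype difference before transplant was tested against that on day 7 post-tx, per CD3 read, for 11 genes. These were chosen with earlier results of these data known. For Gzmk the log2 fold change was 4.90 pre-tx and -0.85 post-tx, a difference of 5.75 (SE 0.72, adjusted p = 4.75e-05, edgeR), where 41.9% of all genes passed this test. Post-tx the Cat-Tg libraries had 28.5, 45.8 and 49.9 reads of Gzmk per 100 CD3 reads and the WT libraries 134, 35.8 and 54.4. The groups of Gzmk stood apart pre-tx and overlapped post-tx. Of the CD8 libraries, only Cat-Tg pre-tx ones were high in Ddx3y and Eif2s3y. What goes with donor sex therefore cannot be told apart from the differences between pre-tx and post-tx. Cd8a gave -0.02 pre-tx and -0.03 post-tx, and their difference did not pass (0.01, SE 0.50). Cd44 gave -4.32 pre-tx and 0.35 post-tx (-4.67, SE 0.65, adjusted p = 9.98e-05, edgeR) and Lef1 -1.40 pre-tx and 1.01 post-tx (-2.42, SE 0.46, adjusted p = 0.000931, edgeR). Gzmb, Prf1 and Ccl5 did not pass, with adjusted p of 0.18, 0.0738 and 0.151 (edgeR). With TMM the difference for Gzmk (8.01) and Cd44 (-2.39) also passed, where 10.7% of all genes did, while those of Gzma, Eomes, Il2rb, Tcf7 and Lef1 did not pass, and that of Cd8a became 2.32 (adjusted p = 0.00845, edgeR).

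TCR β variable segments give a readout within the T cell transcripts, since the share of a segment among all Trbv reads does not scale with the number of T cells. The WT libraries also held Cd4 transcripts, so a difference in share cannot be told apart from their mix of CD4+ and CD8+ cells. The Cat-Tg libraries held 15155 to 31405 Trbv reads and the WT libraries 3189 to 4583. Of 14 segments that made up at least 5% in any library, 4 did not overlap between the groups, 2 higher and 2 lower in Cat-Tg, while the CPM of 17% of all genes did not overlap with Cat-Tg higher and of 16% with Cat-Tg lower. Trbv16 made up 14.7, 13.7 and 15% in Cat-Tg and 7.58, 8.4 and 7.94% in WT, and Trbv12-1 6.49, 6.66 and 6.13% against 2.76, 3.14 and 2.07%. Trbv1 made up 8.02, 6.88 and 7.9% against 10.8, 15.8 and 9.88%, and Trbv13-2 5.77, 5.84 and 6.08% against 7.71, 11.7 and 7.86%. The shares of the Cat-Tg libraries lay close together, while several WT shares were wide apart, such as Trbv19 at 8.73, 1.6 and 10.4%. With 3 libraries against 3 the exact two-sided permutation test cannot go below p = 0.1, which these 4 reached (adjusted p = 0.35 over 14 segments), so no segment passed.

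**Figure D5:**
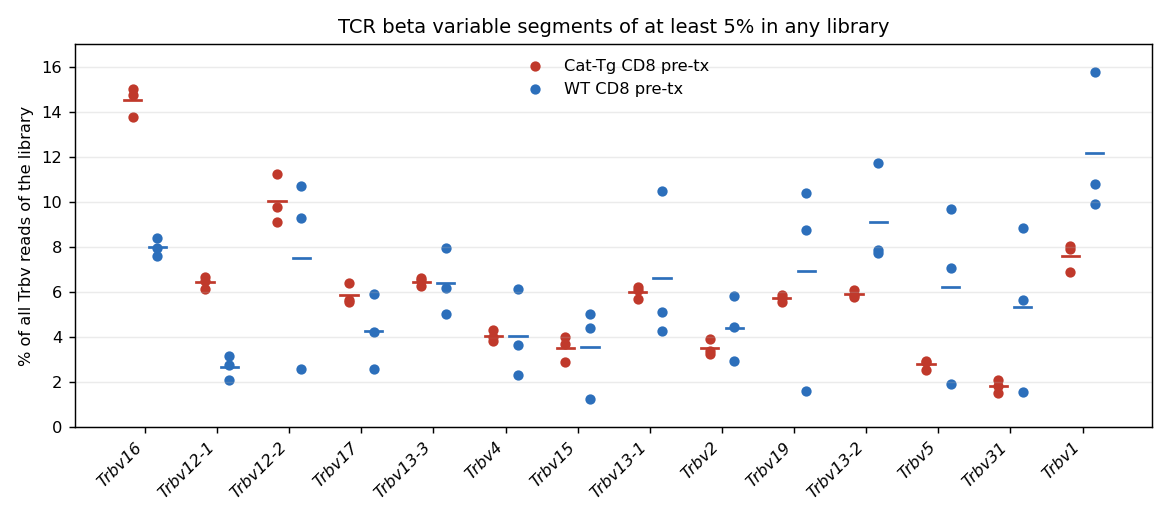
Share of each TCR β variable segment among all Trbv reads of a library, in percent, for segments of at least 5% in any of the 6 CD8 pre-tx libraries, with 1 point per library and a bar at the group mean. Trbv16 lies between 13.7 and 15% in Cat-Tg and between 7.58 and 8.4% in WT.

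Gene length moved with the genotype difference across the whole table. With TMM the median log2 fold change was 0.64 over 649 genes of 400 to 600 bases and -0.52 over 1403 genes of 4000 to 6000 bases. Gzmk (772 bases), Klk8 (757) and Cd3g (750) are short. After a correction for length in each library, chosen after this trend was seen, Gzmk lay at 6.91 with TMM and 4.68 per CD3 read (adjusted p = 4.4e-05, edgeR), and Klk8 at 1.06 per CD3 read (adjusted p = 0.0147, edgeR).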

How the data were processed

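Cells described as sorted splenic T cells were profiled by RNA sequencing of SMART-Seq cDNA. The deposited tables hold, for each of 117497 transcripts, an estimated count, which the authors obtained by Kallisto 0.46.2 without normalization, and a TPM value, which the authors deposited beside it. The submitters' processing notes name mm9, Kallisto and limma. The release of the transcript index is not given in the sources used here.

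Here estimated counts of the 116374 transcripts that matched GENCODE M21 were summed to 35855 genes and rounded. The 12 CD8 libraries entered 1 model in edgeR 4.0.16 with R 4.3.3 (robust quasi-likelihood F test, Benjamini-Hochberg) on the 15967 genes that exceeded 1 CPM in 3 or more libraries, with TMM or with the CD3 geometric mean as library size. SE is the log2 fold change over the square root of F. The 3 CD3 genes are not results of the CD3 fit. Fits were tested on simulated data with the same spread for all genes, and for the CD3 fit every unchanged gene followed the ruler. Large changes were recovered there but most changes at the lowest fold simulated were missed, and the criterion for passing was loosened after the first run. In the data the median per CD3 read was -2.70, and with TMM Foxp3 at -2.97 was not called (adjusted p = 0.0852, edgeR). Recovery in the simulation is therefore no measure of recovery in these data. Alternatives used DESeq2 1.42.0, limma-voom 3.58.1, other rulers, filters and libraries, and counts from TPM.

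Named genes are the 4 markers, coreceptor and CD3 genes and Ctnnb1; the genes with extreme fold changes in both fits, among genes without overlap between the groups and with 10 CPM or more in the higher one; the 3 most abundant of each list; transcripts of proteins the study measured; and genes added after their values were seen: Klk8, Klrd1, Gzma, Gzmm, Lef1, Il7r, Trac, Axin2, Ninj2, Kdm5d, Uty, Klrb1c, Fos, Jun and Nr4a1, plus list members given by a log2 value alone. Results of a few further genes under this rule are not reported here. The members and lists were chosen with earlier results of these data known. Same-numbered libraries correlated at 0.146, 0.186 and 0.0558 in their deviations from group means, so numbers were not taken as pairs. No 2 libraries of a group agreed within sampling noise.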

Additional observations from a re-analysis of the deposited data

Results flagged for a closer look

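The genotype difference per CD3 read differed between pre-tx and post-tx libraries for 7 of 11 genes examined, by the interaction test of edgeR at an adjusted p of at most 0.05, which 41.9% of all genes passed. With TMM Gzmk and Cd44 passed, the others of the 7 did not, and the difference turned to 0.39 for Il2rb and 0.63 for Tcf7. For Gzmk the pre-tx log2 fold change exceeded the post-tx one by 5.75, with WT libraries near 0 pre-tx and both genotypes overlapping post-tx. Gzma differed by -4.80 on the log2 scale (-4.92 pre-tx and -0.12 post-tx), Eomes by -3.34 (-2.64 pre-tx and 0.71 post-tx), Cd44 by -4.67 (-4.32 pre-tx and 0.35 post-tx), Il2rb by -1.95 (-1.71 pre-tx and 0.24 post-tx), Tcf7 by -1.67 (-0.99 pre-tx and 0.68 post-tx) and Lef1 by -2.42 (-1.40 pre-tx and 1.01 post-tx). B cell transcripts moved with this result: Cd79a ran from 994 to 1431 CPM in WT pre-tx and from 3.08 to 17.5 CPM in WT post-tx CD8 libraries, scaled over all 24 libraries. The Y chromosome gene Ddx3y ran from 32.2 to 55 CPM in Cat-Tg pre-tx and from 0 to 0.0638 CPM in Cat-Tg post-tx CD8 libraries. In WT CD8 libraries it reached at most 0.41 CPM pre-tx and 0.538 CPM post-tx. The part of B cell transcripts in the result was not tested, and what goes with donor sex cannot be told apart from it.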

How the results depend on the processing

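The CD3 ruler rests on 3 genes whose own differences span more than 1 log2 unit, all 3 WT libraries hold other cells, genotype goes with the series of libraries, and with 3 libraries a group modest differences can be missed at this depth. With TMM, higher genes numbered 160 with the length correction and 717 with log2 fold changes from 1 counted, and lower genes 969 with DESeq2. Leaving out 1 library gave 184 to 320 higher and 348 to 469 lower genes. Per CD3 read, higher genes numbered 59 with 12 T cell genes as the ruler, 25 with Cd3d alone, 20 with Cd3g alone, 58 with limma-voom and 19 to 60 without single libraries, and lower genes 3863 with Cd3e alone. T list members higher per CD3 read numbered 5 with 12 T cell genes as the ruler, 3 with Cd3e alone, with limma-voom or in the 6 libraries alone, 2 with DESeq2, the TCR constant genes as the ruler or length-scaled TPM, and 1 to 2 without single libraries, Gzmk being among them in every one. The other members so called were Cd8b1, Gzmm, Dapl1 and Klrd1. T list members lower per CD3 read numbered 70 with Cd3e alone, where Tcf7 and Trac turned to 0.12 and 0.24. Cd3e passed the TMM test with DESeq2 (1.51), limma-voom (1.51), no filter (1.45) and the 6 libraries alone (1.56), and Cd4 did not with length-scaled TPM (-3.52). With TMM the difference between pre-tx and post-tx was -2.55 for Gzma, -1.06 for Eomes and -0.10 for Lef1, none past the threshold, 2.32 for Cd8a, and turned to 0.89 for Gzmb, 0.81 for Prf1, 1.32 for Ccl5, 0.39 for Il2rb and 0.63 for Tcf7. With Cd8a and Cd8b1 as the ruler it passed for Prf1 (-1.69) and Ccl5 (-1.21) and was -0.15 for Cd8a. The causes were not tested. In the fit that blocks on replicate number, 307 genes were higher and 457 lower with TMM and 32 and 10913 per CD3 read, Prf1 passed the test between times (-1.78) and Cd8a stood at -0.036; each library correlated best with its own number, a hint from the data and not from the design. Of the remaining values, 259 for the comparisons and 2751 for single genes kept their direction and side of the threshold, or stayed within 1.5 times for counts, and 205 for single genes lost their call.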

Other observations

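Immunoglobulin and γδ TCR constant genes, lists written after the data were seen, were not part of the comparisons above. Immunoglobulin constant genes fell in 9 of 10 members with TMM (edgeR), where 4.48% of all genes fell, and summed to 1163 to 2644 CPM in Cat-Tg against 11128 to 22625 CPM in WT. Ighm, the μ heavy chain, stood at 1820.4, 764 and 1419 CPM in Cat-Tg, so the Cat-Tg libraries also held immunoglobulin transcripts. The constant genes of γδ T cells summed to 22.6 to 32.9 CPM against 10 to 38.4 CPM, and none of 4 was called by edgeR with TMM, by DESeq2 or by limma-voom or had an unadjusted p under 0.05. Trdc, the δ constant gene, stood at 14.1, 11.4 and 2.9 CPM in Cat-Tg and 11.8, 6.02 and 21.5 CPM in WT.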
